A study of Homo sapiens with 6 samples.

Results

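Messenger RNA levels of the proteasome subunits were examined in SW480 cells, a human colorectal cancer line, before and after KIAA1199 expression was switched on. The genes are from the core particle (PSMA1 to PSMA7 and 9 beta subunits) and the regulatory particle (PSMC1 to PSMC6, 11 PSMD genes and ADRM1). With 3 assembly chaperones of the regulatory particle they are 37 genes in all, chosen by their Ensembl identifiers. The subunits PSMB3 and SEM1 are not among the 37. Of these 37, 35 were present among the 26445 probe sets of the value table, and PSMB9 and PSMC1 were not among its identifiers. All cells came from 1 clone, Clone 13, which carries the tetracycline repressor and a KIAA1199 construct that doxycycline induces, kept under selection by blasticidin S at 7 ug/ml and by G418 at 0.4 mg/ml. Each of 3 independent experiments compared an uninduced culture with a culture given 50 ng/ml doxycycline for 48 h. Total RNA of these cultures was hybridized to 6 exon arrays. Both groups carry the construct and differ in doxycycline. No array analysed here holds doxycycline-treated cells without the construct, so effects of the drug and of KIAA1199 cannot be told apart here. The paper cites earlier work in which doxycycline, at doses that include 50 ng/ml, left transcript levels on microarrays unaltered. That work was not checked here.

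The proteasome is the main protease of the cytosol and nucleus. Its core is a barrel of stacked rings, in which the outer alpha subunits form the gate and the inner beta subunits carry the active sites. The regulatory particle caps the barrel. Its ATPases unfold substrates and push them into the core, while the non-ATPase subunits bind ubiquitin chains, remove them and hold the cap together. In mammalian cells the transcription factor NFE2L1 is known to raise many proteasome genes together through antioxidant response elements. PSMA1, PSMA4 and PSMB2, a beta subunit without an active site, were listed by the study among its lowered transcripts.

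With doxycycline the transcripts of the complex showed small differences in both directions, and the median over its genes was close to 0. A gene is called lowered or raised below where its unadjusted p in limma, paired by experiment, was under 0.025 and its fold change was at least 1.2, limits that follow the study's methods. Called lowered were PSMA1 (ENSG00000129084_at), PSMA3 (ENSG00000100567_at) and PSMA4 (ENSG00000041357_at) of the alpha ring. An ATPase, PSMC6 (ENSG00000100519_at), was lowered as well. PSMD3 (ENSG00000108344_at), a non-ATPase subunit of the lid, was called raised. The other 30 genes, PSMB2 (ENSG00000126067_at) among them, were not called. The 5 called genes are 14.3% of the 35, while 5.83% of all probe sets were called. The 4 lowered genes are 11.4% of the members against 2.94% of all probe sets, and the single raised gene is 2.86% against 2.9%. The share of called probe sets depended on the level: it was 9.85% among the brightest 25% by mean level, which hold 32 of the 35 genes, with 4.92% lowered and 4.93% raised. No member reached an adjusted p under 0.05 (0 of 35, limma with Benjamini-Hochberg adjustment, with 0% of all probe sets), although 6 had an unadjusted p under 0.05 against 12.3% of all probe sets. With the methods' t-test 4 members were called, against 2.18% of all probe sets, 8 members had an unadjusted p under 0.05, against 10.4% of all probe sets, and 0 an adjusted one. Without experiment 1, 2 or 3 the called members were 2, 2 and 1 (5.71%, 5.71% and 2.86%), where 5.08%, 3.76% and 3.73% of all probe sets were called, shares closer to each other than with all 6 arrays. With no block for the experiment 4 members were called, against 3.97% of all probe sets, and with a fold change minimum of 1.5, 0 members, against 0.9%.

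Promoter windows of the 5 called genes and of PSMB2 are shown because these members of 1 complex were lowered, raised and not called on the same arrays. They are RefSeq sequences of GRCh38.p14, 5′ to 3′ along the gene, from 250 bases before the transcript start to 30 bases into it. PSMA1 lies at chr11:14520357-14520636 on the reverse strand, PSMA3 at chr14:58244593-58244872 on the forward strand, and PSMA4, for which the first of 3 listed starts is shown, at chr15:78540155-78540434 on the forward strand. PSMC6 lies at chr14:52706950-52707229 on the forward strand, PSMD3 at chr17:39980557-39980836 on the forward strand, and PSMB2 at chr1:35641497-35641776 on the reverse strand. Capitals mark the letters of the CCAAT box and of the core of the antioxidant response element, TGACNNNGC, each read on both strands. They are matches of letters, and whether any of them works as an element was not tested.
PSMA3: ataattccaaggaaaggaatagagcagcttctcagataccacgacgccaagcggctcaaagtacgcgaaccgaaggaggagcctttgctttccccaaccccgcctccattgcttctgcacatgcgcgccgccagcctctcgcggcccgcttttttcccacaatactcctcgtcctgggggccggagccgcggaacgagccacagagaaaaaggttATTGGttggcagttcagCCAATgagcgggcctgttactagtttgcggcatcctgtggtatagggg
PSMA1: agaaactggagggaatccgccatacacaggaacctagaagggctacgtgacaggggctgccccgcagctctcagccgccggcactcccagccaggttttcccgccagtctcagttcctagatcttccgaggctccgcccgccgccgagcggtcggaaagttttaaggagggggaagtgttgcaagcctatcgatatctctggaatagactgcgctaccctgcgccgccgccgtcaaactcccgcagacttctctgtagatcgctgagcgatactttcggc
PSMA4: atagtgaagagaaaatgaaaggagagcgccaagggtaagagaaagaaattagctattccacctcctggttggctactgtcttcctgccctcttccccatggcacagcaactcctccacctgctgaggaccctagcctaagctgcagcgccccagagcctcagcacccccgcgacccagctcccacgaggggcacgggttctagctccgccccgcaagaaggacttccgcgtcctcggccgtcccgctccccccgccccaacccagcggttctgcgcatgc
PSMC6: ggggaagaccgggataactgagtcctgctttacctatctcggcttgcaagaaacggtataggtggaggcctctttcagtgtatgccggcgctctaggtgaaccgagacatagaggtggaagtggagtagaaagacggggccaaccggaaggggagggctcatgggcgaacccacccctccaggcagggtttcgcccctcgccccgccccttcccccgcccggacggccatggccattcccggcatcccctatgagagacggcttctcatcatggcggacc
PSMD3: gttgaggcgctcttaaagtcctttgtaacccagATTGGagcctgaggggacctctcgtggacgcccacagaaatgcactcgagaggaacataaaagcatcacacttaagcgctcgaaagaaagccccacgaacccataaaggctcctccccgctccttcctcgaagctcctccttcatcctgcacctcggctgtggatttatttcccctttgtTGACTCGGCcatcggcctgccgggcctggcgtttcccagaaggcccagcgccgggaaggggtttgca
PSMB2: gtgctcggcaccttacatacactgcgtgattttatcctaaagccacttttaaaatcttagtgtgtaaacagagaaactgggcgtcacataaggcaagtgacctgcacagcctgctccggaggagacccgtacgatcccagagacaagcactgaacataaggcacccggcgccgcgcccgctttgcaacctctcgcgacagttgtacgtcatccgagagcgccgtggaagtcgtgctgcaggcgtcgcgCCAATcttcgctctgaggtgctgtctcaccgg
The PSMA3 window holds a CCAAT match on each strand, at -35 and -18 from the start. PSMD3 holds a TGACNNNGC match at -37 and a CCAAT match at -217, with a further TGACNNNGC match at 34, beyond the stretch shown. PSMB2 has a CCAAT match at -2, which reaches across the start, and the windows of PSMA1, PSMA4 and PSMC6 hold neither motif. No window was matched by symbol for PSMA7, PSMB1, PSMB6, PSMB7 and PSMD4. Windows of 300 bases, from 250 before the start, were matched for the other 30 of the 35 genes. In these, CCAAT was found in 15 genes (50.0%, against 35.7% of the first windows of 27305 genes) and TGACNNNGC in 7 (23.3% against 13.6%). All 7 genes with TGACNNNGC, PSMD1, PSMD3, PSMD5, PSMD9, PSMD12, PSMC4 and ADRM1, encode parts of the regulatory particle or its chaperones. It was found in 0 of the 11 core particle windows, which cover 11 of the 15 core particle genes measured. At a share of 13.6% over all first windows, 11 windows are too few to show that core particle genes lack it. The log2 fold changes of the 7 genes ran from -0.22 to 0.34 with a median of -0.01, beside a median of 0.02 in the 23 genes without it. The GC content of the windows, 44.7% to 74.7% with a median of 61.7%, had next to no relation to the fold changes across the 30 genes (r = -0.01, Spearman rho = 0.06, a description across genes that share the same arrays).

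The deposited log2 levels had been brought to 1 distribution on all arrays, with a median of 5.66 and an upper quartile of 7.02. Every value of the 35 genes lay above this median, and 32 genes lay above the upper quartile on all 6 arrays. The exceptions were PSMB8 and PSMB10, the immunoproteasome subunits, and the chaperone PSMD9. The level of a probe set also depends on its probes, so these positions describe the array signal, and the members are not ranked by level. Since a common distribution was imposed and whole cultures were extracted, a change in total RNA per cell would not be seen, and fewer cells expressing a gene cannot be told apart from less RNA per cell.

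**Figure D1:**
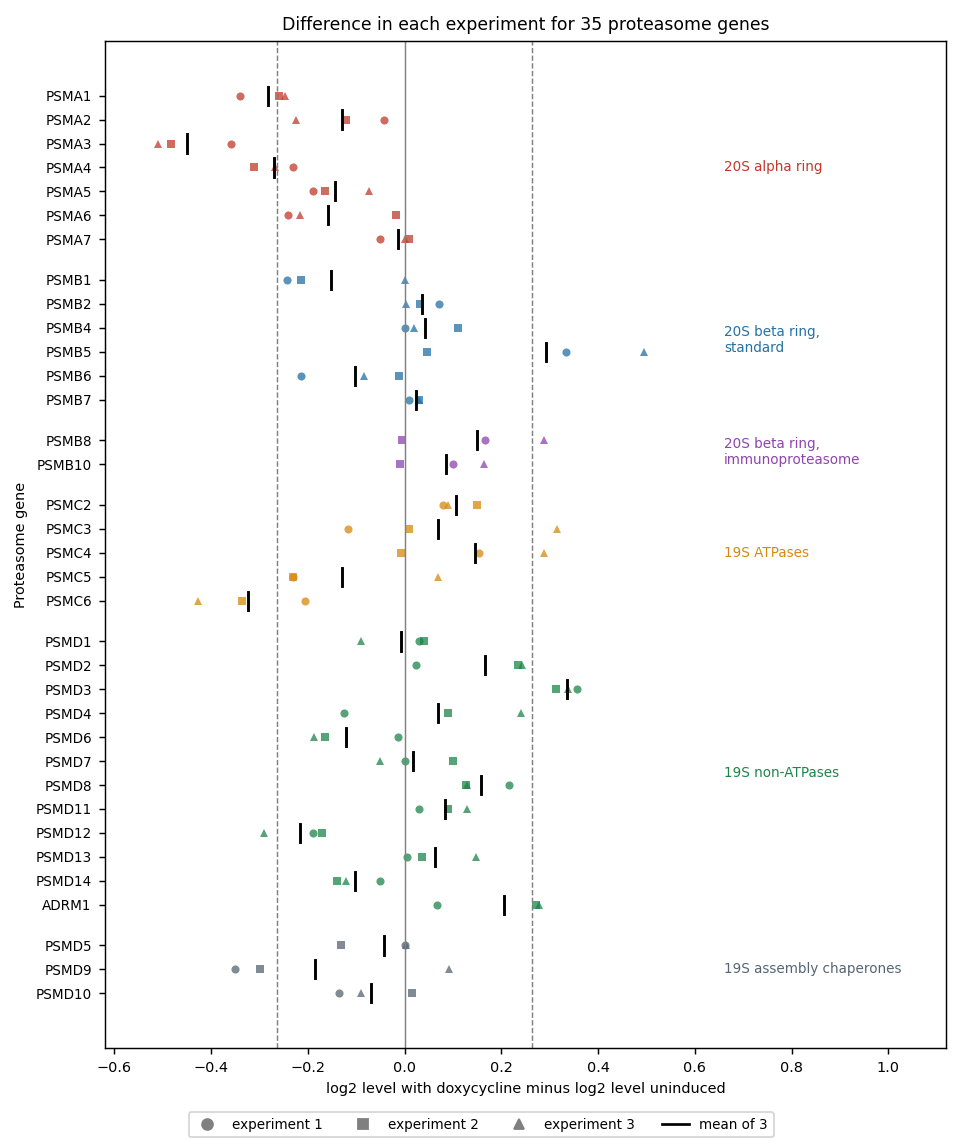
Difference between doxycycline and uninduced cells (log2 level, x axis) for the 35 proteasome genes (y axis), with 1 symbol per experiment and a black bar at the mean of the 3. Dashed lines mark a 1.2-fold change; means in the alpha ring, at the top, are all below 0, while the non-ATPases lie on both sides.

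The differences of the alpha ring pointed the same way. All 7 of its genes had a negative mean difference, where 50.5% of all probe sets had a positive one, and 6 of the 7 were lower with doxycycline in every experiment, where 17.6% of all probe sets were. The largest fall was that of PSMA3. Its log2 level was 9.32, 9.49 and 9.21 in uninduced cells of experiments 1, 2 and 3, and 8.96, 9.01 and 8.70 with doxycycline. All 3 doxycycline arrays thus lay below all 3 uninduced arrays. PSMA3 fell by 0.45 on the log2 scale, or 1.37-fold (standard error 0.07, unadjusted p = 0.0027, adjusted p = 0.35 with limma). It was called at these limits in each of the 11 alternative analyses, also when any single experiment was left out, the only member of which this holds.

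PSMA1 had log2 levels of 10.44, 10.43 and 10.23 uninduced and of 10.1, 10.17 and 9.98 with doxycycline. PSMA4 had 9.77, 9.91 and 9.72 uninduced and 9.54, 9.60 and 9.45 with doxycycline. In both genes the groups did not overlap, and the uninduced array of experiment 3 was the lowest of its group. PSMA1 fell by 0.28 (standard error 0.06) and PSMA4 fell by 0.27 (standard error 0.06) on the log2 scale, 1.22-fold and 1.21-fold, each with an adjusted p of 0.35 (limma). Both sit close to the fold change limit of 1.2. Neither was called when any 1 of the experiments was left out. The log2 differences were then -0.30 to -0.25 for PSMA1 and -0.29 to -0.25 for PSMA4. In these fits the unadjusted p (limma) was 0.040 to 0.057 for PSMA1 and 0.042 to 0.069 for PSMA4, above the limit of 0.025.

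The other alpha subunits were not called. PSMA6 had a log2 difference of -0.16, PSMA5 of -0.14 and PSMA2 of -0.13. In these 3 genes too the doxycycline arrays all lay below the uninduced arrays. PSMA7 stood apart from the rest of its ring, with a difference of -0.01 (95% interval -0.18 to 0.16) and overlapping groups. Without experiment 1 its difference was 0.005. The median over the ring was -0.16, and it was -0.231, -0.165 and -0.225 in experiments 1, 2 and 3 (medians of the 7 differences), whereas over all probe sets the median of the mean differences was 0.00, and the medians of the experiments were -0.004, 0.006 and 0.007. The ring's median is a description of 7 genes on the same 6 arrays and was not tested.

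**Figure D2:**
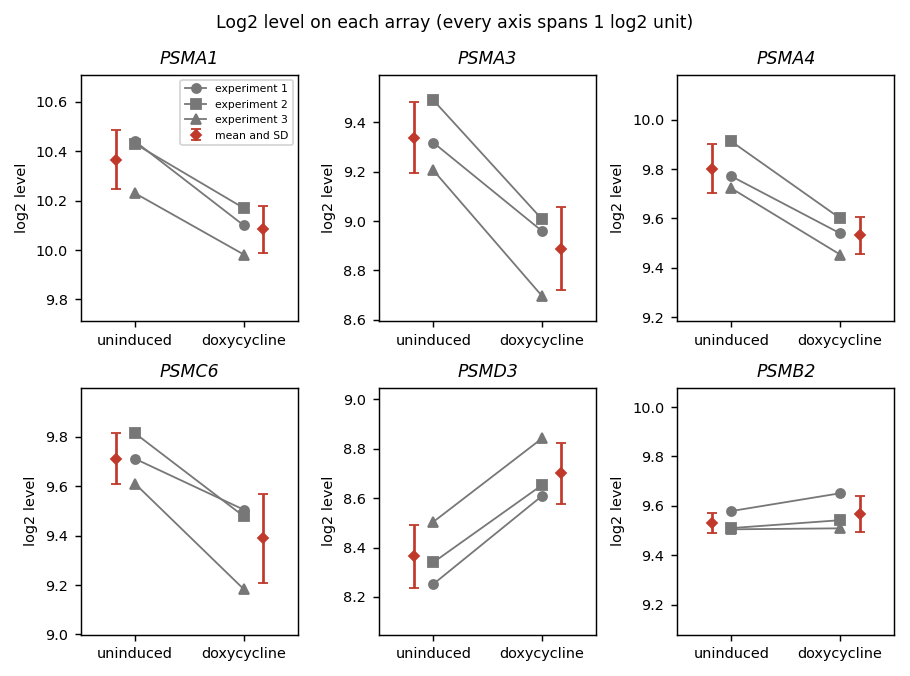
Log2 level on each array for the 5 called genes and PSMB2, with lines joining arrays of the same experiment and red diamonds with bars for the mean and SD of 3 arrays. PSMA1, PSMA3, PSMA4 and PSMC6 are lower and PSMD3 is higher with doxycycline in all 3 experiments, while the lines of PSMB2 are nearly flat.

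Among the beta subunits measured, which do not include PSMB3, no gene was called. PSMB2 had log2 levels of 9.58, 9.51 and 9.505 uninduced and of 9.65, 9.54 and 9.51 with doxycycline, with overlapping groups. Its log2 difference was 0.04 (standard error 0.06, unadjusted p = 0.59, adjusted p = 0.85 with limma), and the 95% interval ran from -0.14 to 0.21. This direction is opposite to that listed for PSMB2 by the study, which worked on transcript clusters of the array and not on the Ensembl probe sets used here. PSMA1 and PSMA4, also listed by the study, were lowered here too. PSMA3, PSMC6 and PSMD3, called here, are not in the study's list of changed transcripts. The difference between clusters and probe sets was not tested. The PSMB2 differences in the 3 experiments were 0.072, 0.032 and 0.004. They were positive each time, for which an exact permutation of the signs of the 3 pairs gives p = 0.25 (two-sided), as small as 3 pairs can give. The interval leaves out 1.2-fold differences in either direction. PSMB2 was called in 0 of the 11 alternatives, with differences from 0.02 to 0.05. The probe set joins the probes of an Ensembl gene, and single exons of PSMB2 were not analysed here.

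The 3 subunits with active sites of the standard core were PSMB5, PSMB6 and PSMB7, which cut after hydrophobic, acidic and basic residues. PSMB5 had log2 levels of 9.13, 9.24 and 9.28 uninduced and of 9.46, 9.29 and 9.77 with doxycycline. The groups did not overlap, but the size of the difference varied more than in other core subunits, being 0.33, 0.05 and 0.50 in the 3 experiments. Its mean, 0.29 on the log2 scale or 1.22-fold (standard error 0.11, unadjusted p = 0.057, adjusted p = 0.42 with limma), was past the fold change limit and not past the p limit. Without experiment 2 the difference was 0.415 and PSMB5 was called. PSMB6 had a difference of -0.10 and PSMB7 of 0.02, and PSMB7 had the smallest spread of its differences among the members, with uninduced levels of 10.90 ± 0.02 and doxycycline levels of 10.92 ± 0.02 (SD, n = 3). PSMB1 and PSMB4, structural subunits, had differences of -0.15 and 0.04.

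In the immunoproteasome, subunits with active sites replace those of the standard core, above all after interferon. PSMB8, the counterpart of PSMB5, had a difference of 0.15 (95% interval -0.09 to 0.39), and PSMB10, the counterpart of PSMB7, of 0.09 (95% interval -0.11 to 0.28). Neither was higher in experiment 2, where the differences were -0.005 and -0.009. In PSMB8 the uninduced arrays themselves spread from 6.54 to 7.01, more than the difference between the groups.

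The ATPases were measured through 5 genes, and the called one was PSMC6. Its log2 levels were 9.71, 9.81 and 9.61 uninduced and 9.505, 9.48 and 9.18 with doxycycline. The groups did not overlap, and the doxycycline array of experiment 3 was the lowest. PSMC6 fell by 0.32 on the log2 scale, or 1.25-fold (standard error 0.08, unadjusted p = 0.013, adjusted p = 0.35 with limma). It was not called with the methods' t-test, without the pairing, or without experiment 2 or experiment 3, although its log2 difference was as large in the first 3 of these (-0.32) and was -0.27 without experiment 3. The other 4 ATPases were not called. PSMC4 had a difference of 0.14, PSMC2 of 0.11, PSMC3 of 0.07 and PSMC5 of -0.13. In PSMC3 the experiments disagreed in sign, with differences of -0.12, 0.01 and 0.32.

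The non-ATPases held 12 genes, with 8 positive and 4 negative mean differences. PSMD3 had log2 levels of 8.25, 8.34 and 8.50 uninduced and of 8.61, 8.65 and 8.84 with doxycycline. The groups did not overlap, and the 3 differences were nearly equal, at 0.36, 0.31 and 0.34. PSMD3 rose by 0.34, or 1.26-fold (standard error 0.06, unadjusted p = 0.0051, adjusted p = 0.35 with limma). With any 1 experiment left out it kept a difference of 0.33 to 0.35 on the log2 scale but was not called, its unadjusted p then being 0.028 to 0.030.

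Of the ubiquitin receptors of the cap, ADRM1 had a difference of 0.21 and PSMD4 of 0.07. PSMD2, a scaffold that also binds ubiquitin shuttles, had a difference of 0.17 and PSMD1, its partner, of -0.01. ADRM1 and PSMD2 were higher with doxycycline in all 3 experiments, without overlap of the groups, and were not called. PSMD14, the deubiquitinase of the lid, had a difference of -0.10. Among the other lid genes, PSMD8 had a difference of 0.16, PSMD11 of 0.08, PSMD13 of 0.06, PSMD7 of 0.02 and PSMD6 of -0.12. PSMD12 had the smallest unadjusted p among the genes not called and is named here after its values were seen. Its log2 levels were 10.47, 10.54 and 10.40 uninduced and 10.28, 10.37 and 10.11 with doxycycline. The groups did not overlap, and the mean difference was -0.22, 1.16-fold (unadjusted p = 0.029, adjusted p = 0.37 with limma), past neither limit.

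The 3 assembly chaperones of the regulatory particle gave no call. PSMD9 had a difference of -0.19, PSMD10 of -0.07 and PSMD5 of -0.04, and in each of them the experiments disagreed in sign. PSMD9 had the widest spread among the members, with differences of -0.35, -0.30 and 0.09.

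**Figure D3:**
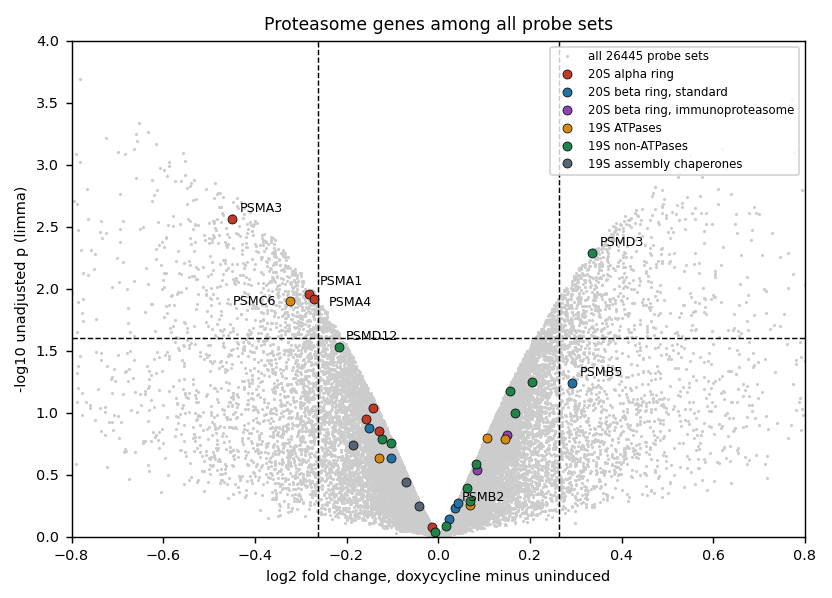
Log2 fold change (x axis) against -log10 of the unadjusted p from limma (y axis) for all 26445 probe sets (grey) and the 35 proteasome genes (coloured by subcomplex); 162 probe sets lie outside the axes. Dashed lines mark the limits of a call, with PSMA1, PSMA3, PSMA4 and PSMC6 past them on the left and PSMD3 on the right.

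Over the 35 genes, 18 mean differences were negative and 17 positive, and their median was -0.01 on the log2 scale, beside 0.00 over all probe sets. The median size of a difference was 0.13, against 0.10 over all probe sets and 0.11 in the 25% with the highest level. The 3 differences of a member had a median SD of 0.08, against 0.14 and 0.10. Of the members, 11 were lower and 10 were higher in all 3 experiments, 31.4% and 28.6%, where 17.6% and 18.9% of all probe sets were. These shares were not computed for the 25% with the highest level, where signs agreed more often than over all probe sets. Signs agreed between experiments 1 and 2, 1 and 3, and 2 and 3 in 71.4%, 71.4% and 68.6% of the members. They agreed in 70.0%, 65.1% and 71.0% of the 25% with the highest level, and in 57.3%, 56.2% and 59.1% of all probe sets. In 9 members the doxycycline arrays all lay below the uninduced arrays and in 6 they all lay above, 25.7% and 17.1%, where 7.93% and 8.64% of all probe sets did so. In the 25% with the highest level these shares were 13.4% and 15.2%. Of the 9 members, 6 were alpha subunits, and of the 6, 5 were non-ATPases.

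The order of the members was much alike in the 3 experiments, which share no arrays. Across the 35 genes, the differences of experiments 1 and 2 correlated with r = 0.74 (Spearman rho = 0.76), those of 1 and 3 with r = 0.69 (rho = 0.67) and those of 2 and 3 with r = 0.70 (rho = 0.64). These are descriptions across genes, which are not independent replicates. Over all probe sets the same correlations were 0.08, 0.10 and 0.16, and over the 25% with the highest level, a comparison added after the data were seen, 0.49, 0.47 and 0.61.

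**Figure D4:**
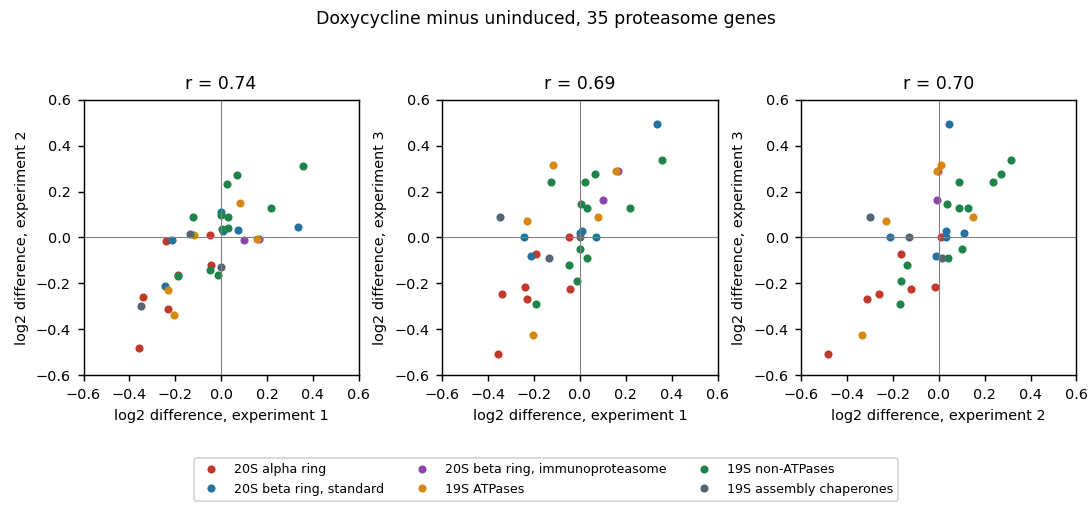
Log2 difference between doxycycline and uninduced cells in 1 experiment against another, for each pair of experiments (r = 0.74, 0.69 and 0.70), with 1 point per proteasome gene coloured by subcomplex. PSMA3 lies at the lower left and PSMD3 at the upper right of each panel.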

How the data were processed

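Expression was measured in 3 uninduced and 3 doxycycline-induced cultures of SW480 Clone 13 on GeneChip Human Exon 1.0 ST arrays (Affymetrix). The authors deposited log2 levels, 1 per Ensembl gene probe set and array. RMA is named in the submitters' processing notes; its version and the annotation version are not given in the sources used here. Values are given with 3 decimals below a level of 10 and 2 above it. All 6 columns of values were used (0 left out). Groups and experiment numbers were taken from the sample titles; the treatment field names doxycycline for all samples, the induction field only for the induced ones. Nothing was renormalized or filtered.

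Each of the 26445 probe sets was tested two-sided with limma 3.58.1 in R 4.3.3 (lmFit, eBayes), doxycycline minus uninduced, with the experiment as a block as in the study's paired test. The Benjamini-Hochberg adjustment was made over every probe set tested. The fit was tested on simulated data. With 3 arrays per group, the number of arrays limits the precision. The limma standard errors and p-values rest on the spread between the experiments, drawn towards a variance shared by all probe sets. For PSMB7, the SD of the 3 differences was 0.01 and the limma standard error was 0.06. Only the methods' t-test rests on the spread of each gene alone.

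The 37 identifiers were named by the order of symbols given with them; neither the deposited values nor the RefSeq gene table used here pair Ensembl identifiers with symbols. PSMB3, SEM1, proteasome activators, assembly factors, ubiquitin genes, NFE2L1 and its partners, interferon response genes, KIAA1199 and cell type markers were therefore not analysed here. For the same reason the labelled cell line and induction were not checked by marker genes. Overlap of probes with pseudogenes or neighbouring genes was not tested. Members and lists were chosen with earlier results of these data known. Genes named in the text are PSMB2, the called genes and, in each subcomplex, those with the largest and smallest absolute difference; the other members are given by their mean difference.

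Promoter windows are from RefSeq (GRCh38.p14), the first window listed per gene. The alternatives tried left out the block, the low-level probe sets or an experiment, renormalized or centred the arrays, removed a lowess trend on the level (span 0.3), changed the variance prior, the test or the fold change minimum.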

Additional observations from a re-analysis of the deposited data

How the results depend on the processing

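The count of 5 called members stayed within 1.5 times in 9 of 13 alternatives. It was 4 (11.4%) with no replicate block, against 3.97% of all probe sets, and 4 with the methods' t-test, against 2.18%, both times without PSMC6. Leaving out experiments 1, 2 or 3 gave 1 to 2 called members: PSMA3 and PSMC6 without experiment 1, PSMA3 and PSMB5 without experiment 2, and PSMA3 without experiment 3, from fits with fewer arrays, where 5.08%, 3.76% and 3.73% of all probe sets were called. A fold change minimum of 1.5 gave 0, against 0.9% of all probe sets, with 6 members at an unadjusted p under 0.05. No member (0) had an adjusted p under 0.05, in limma with the block or in the 11 alternatives, and the smallest adjusted p of a member in these lay between 0.16 (a variance prior that depends on the level) and 0.62 (without experiment 2). The median log2 fold change of the members, -0.01, was between -0.03 and 0.00 with an experiment left out (-0.025 to 0.005), more than the SD of 0.0085 among the experiments' medians; the cause was not tested. The number of members with 1 sign in all 3 experiments, 21, was 21 to 23 in its alternatives. A second quantile normalization and a centring of each array are no independent checks, since the arrays already share 1 distribution. Same-numbered arrays deviated from their group means with an r of 0.04, 0.05 and 0.13 over all probe sets, which is too little to show from the data that the numbers pair the arrays; the block follows the study's paired test. The settings planned for the pathway lists and for KIAA1199 were not run because their identifiers could not be named. Detection calls were not used here, so what the background limits in PSMB8, PSMB10 and PSMD9 was not measured.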
